A study of Mus musculus with 2 samples.

Results

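Small nucleolar RNAs (snoRNAs) were examined in 2 RNA-seq libraries of mouse spermatocytes. The entries were chosen by biotype and level, as genes annotated as snoRNA with at least 1 TPM (a share of all transcripts, corrected for gene length) in either library. Of 1507 snoRNA entries among the 53801 genes of the deposited table, 8 met this rule. The 4 entries Rnu3b1 to Rnu3b4 have the same sequence, so the 8 entries are 5 distinct sequences: Scarna10, Gm23547, Rnu3b, Gm24119 and Snord17. The other 1499 entries were listed at 0 in both libraries. By the higher value of each entry, the lowest inside the threshold were the Rnu3b copies, with 3.54 and 0.913 TPM each. On this measure no snoRNA entry lay between these and 0.

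Spermatocytes are the germ cells that carry out meiosis. One library came from cells of the genotype SMC1beta WT, and 1 from cells labelled as an SMC1beta knockout that also overexpressed SMC1alpha. SMC1beta is the meiosis-specific form of the SMC1 subunit of cohesin, the ring complex that holds sister chromatids together, and SMC1alpha is the form found in other cells. Both libraries were made from primary cells sorted from testis, from total RNA depleted of ribosomal RNA. The knockout and the added SMC1alpha come together in 1 library, so their effects cannot be told apart. The strain, the age, the number of animals per library and the promoter that drives SMC1alpha were not stated in the labels used here. With 1 library per genotype no difference has a replicate check and no test was possible, so "higher" and "lower" are said of these samples alone.

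snoRNAs are short stable RNAs that guide chemical changes on other RNAs. Box C/D snoRNAs pair with ribosomal RNA and direct the methyltransferase fibrillarin to methylate the ribose at the paired position, and box H/ACA snoRNAs direct the enzyme dyskerin to turn a uridine into pseudouridine. A few, such as U3, are needed to cleave the ribosomal RNA precursor, and relatives that reside in Cajal bodies (scaRNAs) modify the small nuclear RNAs of the spliceosome. Most vertebrate snoRNAs are not transcribed on their own but are cut out of introns of other genes, called host genes.

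The sequences are shown because every snoRNA value in the table rests on these few RNAs. They are GENCODE M21 transcripts, 5′ to 3′, with T for U, at positions of the mm10 (GRCm38) build. Capitals mark the TGATGA motif (box C, searched as TGATGA), the last CTGA (box D, searched as CTGA) or, in Gm24119, the ACA near the 3′ end. Scarna10 lies on the minus strand at chr6:125186359-125186683 and is 325 bases long, of which the first 75 and the last 75 are printed. Gm23547 lies on the plus strand at chr6:124715232-124715502 (271 bases). Rnu3b, the mouse U3 RNA, is shown as the first of its copies on the plus strand, at chr11:87443237-87443452 (216 bases). Gm24119 lies on the minus strand at chr10:91118291-91118536 (246 bases), and Snord17 on the minus strand at chr2:144265979-144266216 (238 bases).
Scarna10, first bases: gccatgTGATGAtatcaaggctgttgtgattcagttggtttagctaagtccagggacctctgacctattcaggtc
Scarna10, last bases: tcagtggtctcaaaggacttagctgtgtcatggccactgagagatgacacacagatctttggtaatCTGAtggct
Gm23547: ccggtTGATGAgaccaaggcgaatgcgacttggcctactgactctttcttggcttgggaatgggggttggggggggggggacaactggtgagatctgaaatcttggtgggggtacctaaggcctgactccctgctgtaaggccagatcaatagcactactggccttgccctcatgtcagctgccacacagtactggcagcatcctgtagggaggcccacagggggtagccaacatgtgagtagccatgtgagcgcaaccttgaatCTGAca
Rnu3b: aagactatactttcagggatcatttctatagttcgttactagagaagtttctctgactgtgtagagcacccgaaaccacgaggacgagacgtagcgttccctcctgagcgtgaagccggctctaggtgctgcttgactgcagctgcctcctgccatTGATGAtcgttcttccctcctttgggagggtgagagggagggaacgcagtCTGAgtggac
Snord17: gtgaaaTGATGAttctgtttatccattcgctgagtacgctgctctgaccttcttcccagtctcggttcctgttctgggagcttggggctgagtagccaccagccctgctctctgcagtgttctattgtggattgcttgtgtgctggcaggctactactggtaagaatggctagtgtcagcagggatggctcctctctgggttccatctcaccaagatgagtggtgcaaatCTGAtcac
Gm24119: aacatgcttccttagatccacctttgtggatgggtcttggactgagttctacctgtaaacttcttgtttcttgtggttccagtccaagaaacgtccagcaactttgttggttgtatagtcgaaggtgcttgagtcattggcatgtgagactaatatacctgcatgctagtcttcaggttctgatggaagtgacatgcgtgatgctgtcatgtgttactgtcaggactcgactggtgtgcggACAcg

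In all, 3 of the 5 sequences had TGATGA close to the 5′ end and CTGA close to the 3′ end. In Scarna10 and Snord17 the TGATGA started at base 7 and in Gm23547 at base 6, counted from 1 at the 5′ end. The CTGA was followed by 5 bases in Scarna10, by 4 in Snord17 and by 2 in Gm23547. Over all 1507 snoRNA sequences, 329 (21.83%) had TGATGA starting in the first 20 bases, 533 (35.37%) had CTGA starting in the last 20, and 310 (20.57%) had both. Rnu3b had its TGATGA at base 157, far from the 5′ end, and its last CTGA 6 bases before the 3′ end. Gm24119 held no TGATGA and had an ACA followed by 2 bases, a place where 706 of the 1507 entries (46.85%) had an ACA starting in the last 8 bases. The last CTGA of Gm23547 is followed by CA, so the same end also holds an ACA that overlaps it. A match is a string of letters and not a shown binding site.

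The targeted gene was only a little lower in the labelled knockout, and the part of the gene that was deleted is not given in the labels. Smc1b stood at 76.1 TPM in wild type, against 62.9 TPM in the labelled knockout, while Smc1a stood at 0.510 and 28.8 TPM. A transcript that outlasts the knockout and an exchange of the libraries cannot be told apart by the Smc1b level, and an exchange would turn every direction given here. Smc1a was higher in the library labelled as overexpressing it. The sample titles carry the tag 4N, which the labels do not explain. Marker genes of spermatocytes and of other cells also differed between the libraries. All 17 measured spermatocyte markers reached 1 TPM in either library, and Dmc1 stood at 0.778 TPM in wild type. Of them 4 were higher by 2-fold or more: Dmc1 (21.3 TPM in the labelled knockout), Sycp1 (68.4 and 259.4 TPM), Hormad1 (167.9 and 395.4 TPM) and Sycp3 (264.5 and 602.5 TPM). Another 5 were lower: Pou5f2 (92.8 and 15.2 TPM), Ccna1 (185.6 and 38.0 TPM), Adam3 (568.0 and 139.5 TPM), Spata16 (234.6 and 83.1 TPM) and Ldhc (3398 and 1585 TPM). All 17 summed to 6987 TPM in wild type, against 5240 TPM in the labelled knockout. Without Ldhc, the most abundant, the sums were 3589 and 3655 TPM, which hide these opposite differences. Of 15 spermatid markers, 15 were lower by 2-fold or more (13 under either rescaling described with the hosts), with a summed 2916 TPM in wild type, against 167.8 TPM in the labelled knockout. At least 2-fold higher were 12 of 14 markers of spermatogonia (15.0 and 103.9 TPM summed; Rhox13 at 0 in wild type), 12 of 14 of Sertoli cells (105.3 and 630.0 TPM), 11 of 11 of Leydig cells (82.1 and 1932 TPM) and 6 of 8 of macrophages (4.34 and 31.6 TPM; C1qa and Fcer1g at 0 in wild type). Of 6 markers of peritubular myoid cells 3 were higher and 2 lower (46.5 and 55.5 TPM summed), and of 4 of red blood cells 1 was higher (5.41 and 8.85 TPM). Each sum runs over all measured genes of its list, those below 1 TPM included. Fewer cells of a type and less RNA per cell cannot be told apart in such libraries. The part of these cell types in the snoRNA values was not tested.

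Every snoRNA entry with a value was long for its class. Of 13 snoRNA entries of 216 bases or more, 8 were above 0, and of 1494 shorter entries 0 were. The 5 long entries at 0 in both libraries were Gm23927, Gm24826, Gm25203, Gm25483 and Gm24221. The shortest gene of any kind above 0 was Gm37095, of 205 bases, and all 6827 genes shorter than that, 1479 of them snoRNAs, were listed at 0. A value of 0 for a short snoRNA therefore stands beside zeros for every other gene shorter than 205 bases, and it gives no upper limit on that RNA. The share of genes other than snoRNAs above 0 was 1.86% at 201 to 215 bases, 14.8% at 216 to 250 bases, 30.3% at 251 to 300 bases and 67.9% at 501 to 1000 bases.

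**Figure D1:**
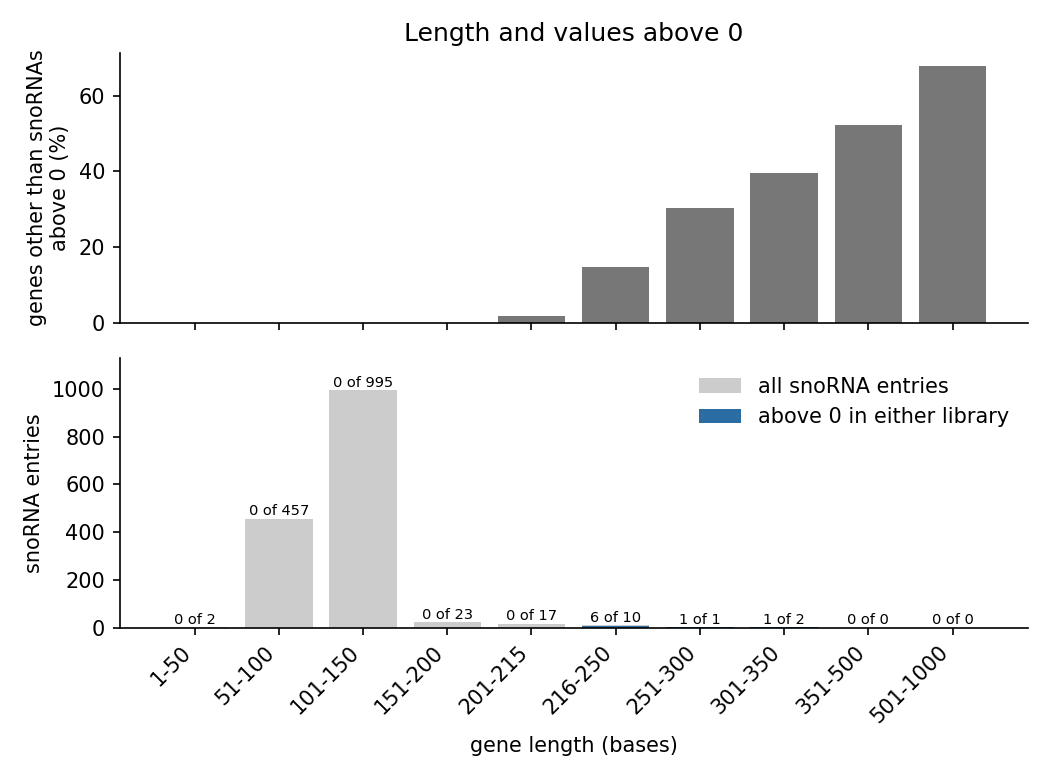
Upper panel: percentage of genes other than snoRNAs with a value above 0 in either library, in bins of gene length in bases. Lower panel: number of snoRNA entries in each bin (grey) and of those above 0 (blue), with the counts printed; all 8 entries above 0 lie at 216 bases or more, while the 2 largest bins, with 457 and 995 entries of 51 to 150 bases, hold 0.

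The plot of length and values above 0 shows that the same lengths empty the table for all genes, with most snoRNAs in the empty bins. Other catalogues of short RNA were in the same state. Of 1385 small nuclear RNA entries, the longest of 200 bases, 0 were above 0, and likewise 0 of 2207 microRNA entries and 0 of 22 mitochondrial transfer RNAs. Per the labels' protocols, adaptors were removed from the libraries with magnetic beads at a ratio of 1 to 0.9 and reads of 75 bases were sequenced. Their part in the zeros was not tested.

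The reads behind the snoRNA values could be read from the steps in the table. Among genes with 1 transcript and 211 to 349 bases, low TPM values were multiples of a unit that depends on length, which is the TPM worth of 1 read. The step was measured at 122 lengths and was 29.2% larger in wild type at a given length. Of the values under 20 reads at these lengths, 72.36% of 597 in wild type and 72.4% of 721 in the labelled knockout were whole numbers of reads within 0.02 read. The steps were taken from values of these same genes, so these shares are no independent check of them. One read was worth 2.36 TPM in wild type, against 1.83 TPM in the labelled knockout for Rnu3b, but 0.685 and 0.530 TPM for Scarna10. A low TPM of a short snoRNA thus rests on few reads. Intervals below are exact 95% Poisson intervals on these reads, and cover counting error only, since reads copied by PCR are not independent molecules.

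**Figure D2:**
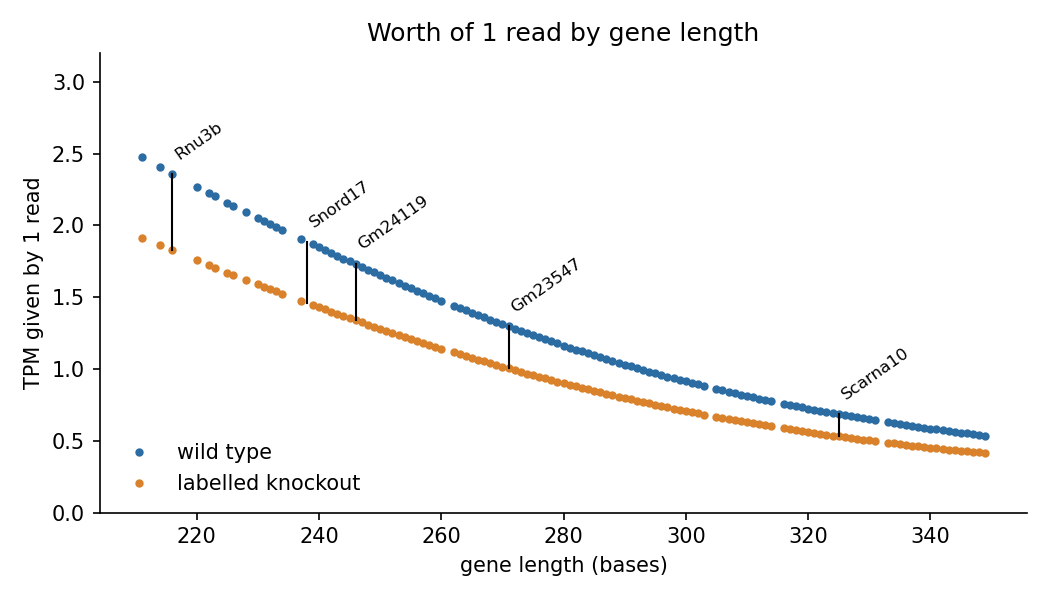
TPM given by 1 read (vertical axis) against gene length in bases (horizontal axis), 1 point per length and library, with the lengths of the 5 snoRNA sequences marked. The worth falls with length and lies higher in wild type, at 2.36 TPM for Rnu3b and 0.685 TPM for Scarna10.

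Scarna10 was by far the most abundant of the 5 sequences. Its human counterpart, also called U85, guides modification of the U5 spliceosomal RNA in Cajal bodies. Scarna10 stood at 582.6 TPM (95% interval 544.1 to 623.1) in wild type, from 851 reads. In the labelled knockout it stood at 532.6 TPM (500.2 to 566.6), from 1005 reads. The ratio of labelled knockout to wild type was 0.914, with a counting interval of 0.834 to 1.003. On the deposited scale this interval just holds 1, so a difference beyond counting error was not resolved. The direction turned under the rescalings described with the hosts, for which no interval was computed. Scarna10 held 89.3% of the summed snoRNA TPM in wild type, against 84.7% in the labelled knockout. Its length depends on the catalogue: RefSeq, on the same build, gives it as chr6:125186361-125186431, of 71 bases. Gm28967, a sense-intronic entry of 281 bases inside Scarna10, was listed at 0 in both libraries.

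Rnu3b encodes U3, the box C/D RNA that pairs with the ribosomal RNA precursor and is needed to release the small-subunit RNA rather than to guide methylation. Its 4 copies lie within 28.3 kb, at chr11:87443237-87443452, chr11:87448627-87448842, chr11:87462286-87462501 and chr11:87471368-87471583. Each copy was given 3.54 TPM in wild type, or 1.5 reads, and 0.913 TPM in the labelled knockout, or 0.5 reads. Equal fractions of a read in each copy mean that the reads were shared over identical sequences, so no copy can be told from another. Summed, U3 stood at 14.1 TPM (5.19 to 30.8) from 6 reads in wild type and at 3.65 TPM (0.442 to 13.2) from 2 reads in the labelled knockout. The ratio was 0.258 with a counting interval of 0.0255 to 1.44, which holds 1, so a difference was not detectable at this depth. The 4 Rnu3b entries that lack the last base, of 215 bases each, were listed at 0, as were both entries of Rnu3a, another U3 gene, whose sequence is identical to Rnu3b in 187 of 219 aligned columns (85.4%).

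Snord17, the sole Snord-named entry with a value, is a box C/D RNA. It was listed at 0 in wild type, from 0 reads, which allows up to 5.66 TPM at 3 reads, while its exact interval reaches 6.96 TPM. In the labelled knockout it stood at 4.38 TPM (0.904 to 12.8), from 3 reads. The value in the labelled knockout is below the wild-type limit, so no fold is given and a difference was not detectable at this depth. The RefSeq span of Snord17 is 221 bases.

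Gm23547 and Gm24119 carry clone-type symbols, and no function is given to them here. Gm23547 stood at 50.5 TPM (35.9 to 69.1) from 39 reads in wild type and at 80.3 TPM (63.7 to 99.9) from 80 reads in the labelled knockout. The ratio was 1.59 with a counting interval of 1.07 to 2.39. On the deposited scale it is the one interval of the 4 that lies wholly to 1 side of 1. This compares these libraries, not the genotypes, and the spread between animals is unknown. Gm24119 stood at 5.19 TPM (1.07 to 15.2) from 3 reads in wild type and at 8.03 TPM (2.95 to 17.5) from 6 reads in the labelled knockout. Its ratio of 1.55 had an interval of 0.331 to 9.57, so a difference was not detectable at this depth.

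**Figure D3:**
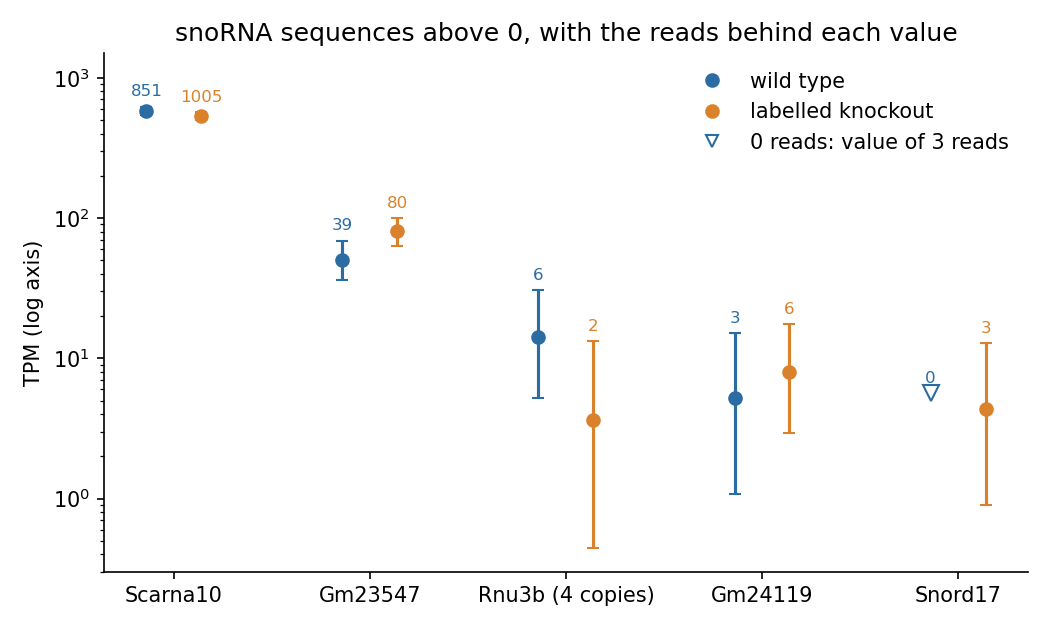
TPM of the 5 snoRNA sequences (log axis) in wild type (blue) and the labelled knockout (orange), 1 library each, with exact 95% Poisson intervals as bars, which cover counting error only, and the number of reads printed above each point. The open triangle is the value of 3 reads for Snord17, at 5.66 TPM; Scarna10 lies above 500 TPM in both libraries while U3, Gm24119 and Snord17 rest on 6 reads or fewer.

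The plot of TPM with reads shows the order of the levels. Scarna10 and Gm23547 were first and second in both libraries, with intervals that did not overlap those of any other sequence. Among U3, Gm24119 and Snord17 the intervals overlapped in each library, so their order was not resolved. All 5 together made up 652.5 TPM in wild type, against 629.0 TPM in the labelled knockout, a ratio of 0.964. This direction turned under the rescalings described with the hosts, from a log2 ratio of -0.05 to 0.15 and 0.30. Without Scarna10 the sums were 69.9 and 96.3 TPM, a ratio of 1.38.

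Counted on log2 of (TPM + 1), labelled knockout over wild type, 1 of the 8 entries was at least 2-fold higher and 4 were at least 2-fold lower, beside 15.0% of 23148 genes higher and 19.3% lower. The rule for the entries used the same 2 columns, so nothing is read from these counts. The 4 lower entries are the copies of U3, and the higher one is Snord17 with its 3 reads, so the counts rest on few reads. With identical copies summed, a setting chosen after seeing the data, 1 of 5 was higher and 1 lower. Among the 574 genes of 216 to 325 bases at 1 TPM or more, 27.0% were higher and 35.7% lower. The median log2 ratio was -0.69 over the 8 entries and 0.55 over the 5 sequences, beside -0.22 over all genes.

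All 5 sequences lie within a gene on the same strand, which is called the host here by position alone. Whether each RNA, U3 included, is cut out of that gene was not tested. Scarna10 lies in Ncapd2, which encodes a condensin subunit and stood at 89.2 TPM in wild type, against 62.6 TPM in the labelled knockout. Gm23547 lies in Phb2, which encodes a prohibitin of the mitochondrial inner membrane and stood at 29.2 and 51.6 TPM. The Rnu3b copies lie in introns of Tex14, a gene needed for the bridges between germ cells, at 53.7 and 29.999 TPM. Gm24119 lies in an intron of Slc25a3, the mitochondrial phosphate carrier, at 108.8 and 144.6 TPM. Snord17 lies in an intron of Snx5, a sorting nexin, at 28.3 and 60.3 TPM. Scarna10 overlaps an exon of a retained-intron transcript of Ncapd2, and Gm23547 overlaps exons of retained-intron and processed transcripts of Phb2, and for all 5 sequences reads of the snoRNA cannot be told apart from reads of unspliced host RNA.

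As deposited, 5 of 5 sequences differed in the same direction as the host. Scarna10 had a log2 ratio of -0.13 and Ncapd2 one of -0.50. Gm23547 had 0.66 and Phb2 0.80, and Gm24119 had 0.55 and Slc25a3 0.41. U3, summed over its copies, had -1.70 and Tex14 -0.82, and Snx5 had 1.06, beside 0 and 3 reads of Snord17. The count fell to 4 of 5 when the libraries were rescaled. Rescaling by the trimmed mean moved the median of all genes by 0.18, to -0.04, and rescaling to protein-coding genes moved it by 0.35, to 0.13. Scarna10 then had a log2 ratio of 0.07 and 0.22, while Ncapd2 stayed negative at -0.30 and -0.16. On the deposited scale counting error leaves the direction of Scarna10, U3, Gm24119 and Snord17 unresolved, and that of Gm23547 alone lay beyond it. No interval was computed for the hosts, so whether any shared direction holds beyond counting error was not tested.

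**Figure D4:**
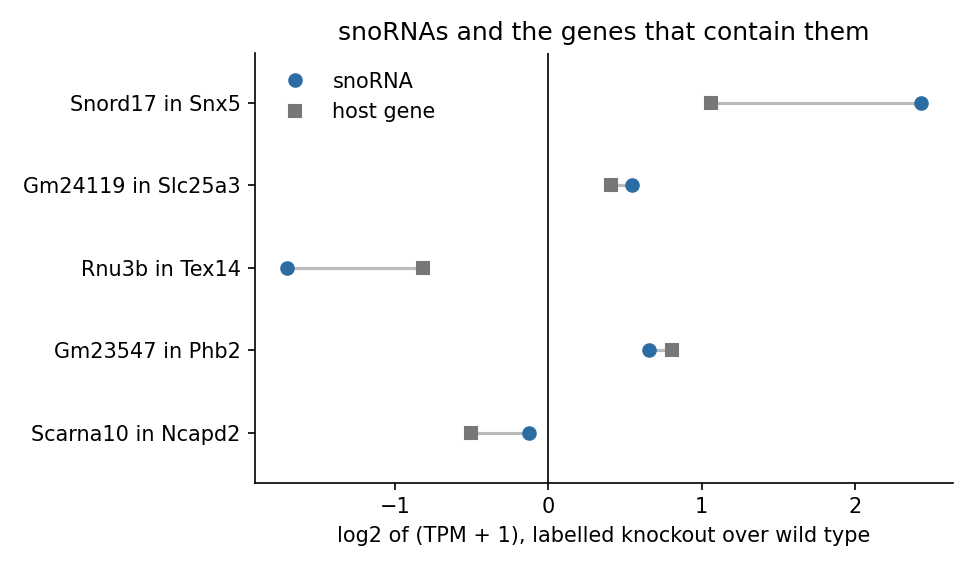
Log2 of (TPM + 1), labelled knockout over wild type, for each snoRNA sequence (blue circles) and its host gene (grey squares), joined by a line; the vertical line marks 0, and the Rnu3b copies are summed. Each pair lies on 1 side of 0 as deposited, from U3 at -1.70 with Tex14 at -0.82 to Snord17 with Snx5 at 1.06; the position of Snord17 rests on 0 and 3 reads and depends on the added 1 TPM.

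The plot of snoRNAs and hosts covers the few hosts with a measurable snoRNA, but most hosts had none. In the whole catalogue 661 snoRNA entries (43.9%) lay within a same-strand gene. For 531 of them the host reached 10 TPM in either library, and 523 of these 531 were listed at 0. This held for 87 of 88 such Snord entries and 35 of 35 such Snora entries. All Snora entries and all but 1 Snord entry are shorter than 216 bases, where 0 of 1494 snoRNA entries had a value. These counts were thus fixed by length and say nothing about the hosts. The 41 Snora entries, of 121 to 205 bases, were all at 0, and 97 of the 98 Snord entries, of 64 to 238 bases, were too. Of 65 X-linked snoRNA entries, 0 were above 0, beside 8 of all 1507 entries, so nothing is read from this count about the X chromosome.

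Hosts of 5 or more snoRNA entries, a limit set here after their values were seen, were transcribed in both libraries. Snhg14, the long RNA of the Prader-Willi region, contained 208 entries and stood at 38.5 TPM in wild type, against 37.5 TPM in the labelled knockout. Rian, an imprinted RNA made from the maternal allele, contained 13 entries and stood at 7.77 and 14.9 TPM. Gas5, a growth-arrest RNA that codes for no protein, contained 10 entries and stood at 55.5 and 67.2 TPM. Taf1d, which encodes a subunit of the selectivity factor of RNA polymerase I, contained 8 entries and stood at 51.5 and 133.1 TPM. Snhg1 and Tex14 also contained 8 entries each, with Snhg1 at 11.2 and 29.2 TPM and Tex14 at 53.7 and 29.999 TPM. Nop56 contained 5 entries, at 4.66 and 41.5 TPM. So did Eif4a2 (295.1 and 339.7 TPM), Rpl4 (203.9 and 257.1 TPM) and Snhg12 (10.2 and 19.1 TPM). Apart from 4 entries in Tex14, the Rnu3b copies, each of the entries in these hosts was listed at 0 in both libraries.

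Of 304 hosts, 258 reached 1 TPM, of which 53 (20.5%) were higher by 2-fold or more and 24 (9.30%) lower by as much. Over 15000 protein-coding genes the shares were 18.7% and 16.5%. The median log2 ratio was 0.22 for the hosts and -0.05 for protein-coding genes as deposited, 0.42 and 0.15 by the trimmed mean, and 0.55 and 0.32 by protein-coding genes. Rescaled by the trimmed mean, 67 of 260 hosts were higher and 16 lower, and rescaled to protein-coding genes, 87 of 272 were higher and 15 lower. Protein-coding genes moved the same way, to 22.3% higher and 12.6% lower, and to 27.2% and 10.6%. The marker levels of spermatocytes and other cell types given above differed between the same libraries, and their part in the host values was not tested.

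The snoRNAs that process ribosomal RNA were, apart from U3, listed at 0 in both libraries. They were Snora73a and Snora73b (205 bases each, the mouse U17 genes), Snord118 (U8, 135 bases), Snord13 (U13, 104 bases), the U14 genes Snord14a, Snord14c, Snord14d and Snord14e (86 to 90 bases) and Snord22 (U22, 126 bases). The imprinted Snord64 (67 bases) and Snord107 (70 bases) were also at 0. Each of these is 205 bases or shorter, in the range where the table gave no snoRNA a value.

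Other structured RNAs of similar length, which the table lists under other biotypes, gave a comparison at readable depth. The scaRNA Scarna2 stood at 917.3 TPM in wild type, against 1013 TPM in the labelled knockout. Scarna6 stood at 126.6 TPM (91 reads) and 157.3 TPM (146 reads), and Gm22009 at 195.2 TPM (344 reads) and 194.1 TPM (442 reads). Their ratios of 1.10, 1.24 and 0.995 stand beside 0.914 for Scarna10. Scarna13 stood at 12.4 TPM (10 reads) and 23.9 TPM (25 reads), and Gm25395 at 38.4 TPM (30 reads) and 50.6 TPM (51 reads), with ratios of 1.94 and 1.32. Among the ribozymes, Rmrp, the RNA of RNase MRP, stood at 834.9 and 1552 TPM, a ratio of 1.86. Rmrp lies within AL732506.1, a gene on the same strand that stood at 2435 and 10801 TPM. The recovered reads of Rmrp, 644.17 and 1546.9, were not whole numbers. How reads were divided between Rmrp and AL732506.1 was not tested, so the ratio of Rmrp alone is uncertain. Rpph1, the RNA of RNase P, stood at 6741 and 23158 TPM, a ratio of 3.44. Rpph1 alone thus took more TPM than all snoRNA entries together in each library.

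The proteins that snoRNAs need were measured through long mRNAs. A set of 4 proteins binds box C/D RNAs. Nop56, a core scaffold, stood at 4.66 TPM in wild type, against 41.5 TPM in the labelled knockout. Fbl, the methyltransferase fibrillarin, stood at 2.77 and 14.9 TPM. Snu13, which binds the RNA's kink-turn, stood at 37.0 and 64.3 TPM, and Nop58, the second scaffold, at 110.8 and 107.6 TPM. In this list of 4, 2 passed 2-fold upward and 0 downward, with a median log2 ratio of 1.43. Nop58 turned from -0.04 to 0.16 and 0.31 under the rescalings.

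Another 4 proteins bind box H/ACA RNAs. Dkc1, the pseudouridine synthase dyskerin, stood at 2.74 and 6.13 TPM. Gar1 stood at 17.8 and 36.9 TPM, Nhp2 at 11.0 and 19.3 TPM and Nop10 at 76.6 and 54.8 TPM. In this list of 4, 1 (Gar1) passed 2-fold upward on TPM + 1 and 0 downward, with a median log2 ratio of 0.84. Rescaled by the trimmed mean 2 were higher, and rescaled to protein-coding genes 3. With 4 members in each list, the counts say little beside the 18.7% of protein-coding genes that were higher. Under the rescalings that share was 22.3% and 27.2%.

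Of 15 factors that assemble and move snoRNPs, 4 (26.7%) were at least 2-fold higher and 3 (20%) lower, beside 18.7% and 16.5% of protein-coding genes. The higher ones were Phax, the export adaptor (3.34 and 12.96 TPM), Tgs1, the cap methyltransferase (1.35 and 4.40 TPM), Shq1, the dyskerin chaperone (1.74 and 5.12 TPM), and Rpap3 of the R2TP complex (8.39 and 18.3 TPM). The lower ones were Coil, the Cajal body protein coilin (102.8 and 41.0 TPM), Pih1d1 of the R2TP complex (209.0 and 92.8 TPM) and Znhit3 (131.9 and 61.1 TPM). The median of -0.16 turned to 0.04 and 0.19 under the rescalings, with 4 higher and 1 lower, and 4 higher and 0 lower. Of protein-coding genes 22.3% were then higher and 12.6% lower, and 27.2% and 10.6%.

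Proteins that act with U3 on the ribosomal RNA precursor had 4 of 16 genes (25%) at least 2-fold higher and 2 (12.5%) lower, beside 18.7% and 16.5% of protein-coding genes, with a median of 0.64. Wdr43 stood at 3.24 and 13.004 TPM, Wdr75 at 19.2 and 45.7 TPM, Nol6 at 5.84 and 14.3 TPM and Rcl1 at 0.699 and 5.03 TPM. Bms1, a GTPase, stood at 73.8 and 35.3 TPM and Nop14 at 42.8 and 17.6 TPM. Rescaled by the trimmed mean, 4 of the 16 were higher and 1 lower, and rescaled to protein-coding genes, 8 were higher and 0 lower, beside 22.3% and 12.6%, and 27.2% and 10.6%, of protein-coding genes. Rrp9, the protein that binds U3 itself, stood at 17.04 and 23.0 TPM.

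Of 20 enzymes that free, trim or degrade these RNAs, 3 (15.0%) were at least 2-fold higher and 3 lower, near the 18.7% and 16.5% of protein-coding genes, with a median of 0.27. Exosc8 (5.07 and 17.5 TPM), Parn (2.97 and 7.23 TPM) and C1d (4.83 and 11.4 TPM) were higher, and Exosc3 (107.0 and 26.4 TPM), Exosc5 (227.1 and 92.1 TPM) and Toe1 (38.4 and 17.7 TPM) lower. Dbr1, the enzyme that opens intron lariats, stood at 4.41 and 7.005 TPM. The split became 5 higher and 2 lower, and 7 higher and 1 lower, under the rescalings. Protein-coding genes moved the same way, to 22.3% higher and 12.6% lower, and to 27.2% and 10.6%.

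Of 14 genes of RNA polymerase I and its factors, which make the RNA that snoRNAs modify, 3 (21.4%) were at least 2-fold higher and 0 lower, beside 18.7% and 16.5% of protein-coding genes. Ubtf, the upstream binding factor, stood at 1.98 and 9.72 TPM, Polr1b at 3.27 and 8.23 TPM, and Taf1d as given above. Polr1a, the largest subunit, stood at 64.3 and 33.8 TPM. The median of -0.12 turned to 0.08 and 0.23 under the rescalings. The markers of spermatocytes, spermatids, spermatogonia and somatic testis cells that differ between the libraries stand beside each of these lists. Their part in the lists was not tested.

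**Figure D5:**
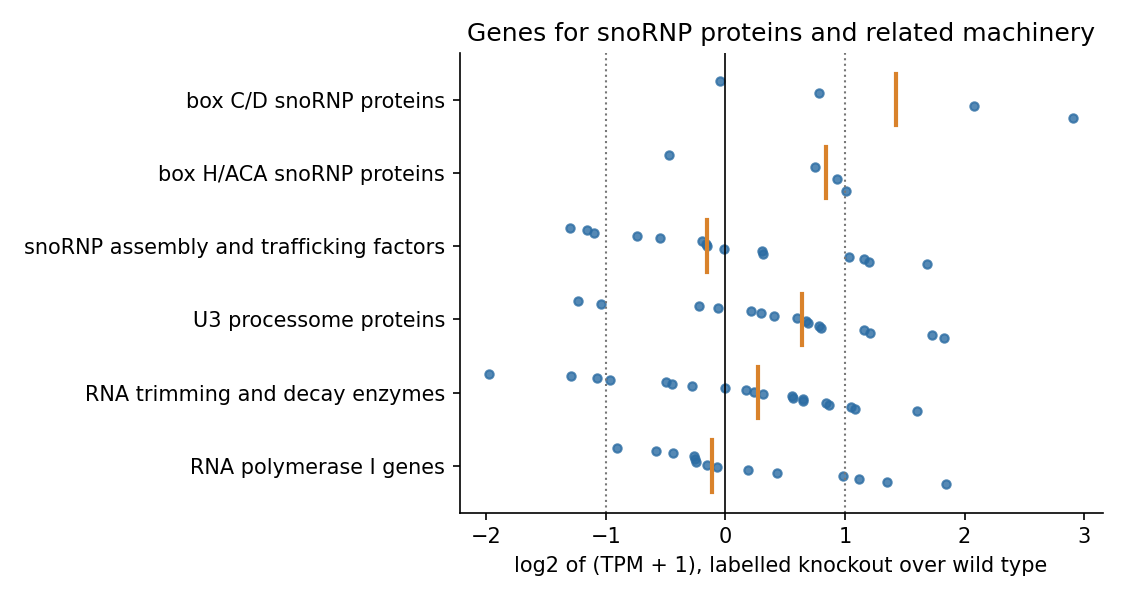
Log2 of (TPM + 1), labelled knockout over wild type, for each measured gene of 6 lists (blue points), with the median of each list as an orange bar, a solid line at 0 and dotted lines at 2-fold. The median is highest for the box C/D proteins, at 1.43 with Nop56 farthest to the right, and close to 0 for the assembly factors (-0.16) and RNA polymerase I genes (-0.12).

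The plot of machinery genes shows wide lists: the 20 trimming and decay enzymes run from Exosc3 at -1.98 to Exosc8 at 1.61, and the assembly factors from Coil at -1.30 to Phax at 1.69. The lists were chosen with earlier results of these data known. Their medians stand beside -0.05 for protein-coding genes, the nearer background, and -0.22 for all genes.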

How the data were processed

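RNA from 2 libraries of mouse spermatocytes was measured, 1 per genotype, grouped by the genotype labels. Per the labels' protocols, ribosomal RNA was depleted, strand-specific libraries were amplified over 15 PCR cycles and sequenced from 1 end over 75 bases, to a depth of at least 40000000 reads each. The deposited table gives TPM per gene, computed by the authors, with each column summing to 1000000. The submitters' processing notes name the mm10 build and, as tools, kallisto 0.43.1, TopHat, GSNAP and bcl2fastq 2.19.1. What each tool did, which filters were set and which annotation was used is not given in the sources used here. All 1507 snoRNA identifiers and lengths matched GENCODE M21, which gave the sequences. RefSeq spans are those of GRCm38.p6.

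Ratios were log2 of (TPM + 1), labelled knockout over wild type, for genes that reached 1 TPM in either library, counted at 2-fold. Reads per gene were recovered from the steps of the TPM values of genes of 350 bases or shorter with 1 transcript, and intervals are exact Poisson and, for ratios, Clopper-Pearson intervals. The step method was tested on simulated data. A host is a same-strand gene that contains the snoRNA. Gene symbols and coordinates are those of the table. Named snoRNAs are the 12 members with the highest mean TPM, the 10 highest and 10 lowest ratios at 10 TPM or more, the processing and imprinted snoRNAs and X-linked members, with their hosts and the genes of the lists. The members and lists were chosen with earlier results of these data known. Alternatives were pseudocounts of 0.1 and 5 TPM, 2 rescalings, other filters, counting at 4-fold and identical copies summed. The trimmed mean left out 30% of genes at each end. Python 3.11.15, NumPy 2.4.6, pandas 2.3.3, SciPy 1.17.1, Biopython 1.88 and Matplotlib 3.10.9 were used.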

Additional observations from a re-analysis of the deposited data

How the results depend on the processing

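The counts and medians over the 8 entries are fragile, because 4 entries are copies of 1 sequence and most rest on few reads. The median of -0.69 became 0.55 when 5 TPM or more was asked for, when 1 TPM or more was asked for in both libraries, and when identical copies were summed (a setting added after seeing the data). Each of these settings drops or merges the Rnu3b copies by construction. The 1 entry at least 2-fold higher became 0 with a pseudocount of 5 TPM and under both stricter filters, and 2 when rescaled to protein-coding genes, where Gm23547 reached a log2 ratio of 1.01. The 4 entries at least 2-fold lower became 0 with a pseudocount of 5 TPM, under both stricter filters and at 4-fold, and 1 with identical copies summed. The Snord median, which is Snord17 alone, was 2.43 as reported, 5.49 with a pseudocount of 0.1 TPM, 0.91 with 5 TPM and 3.31 when rescaled to protein-coding genes. These values follow the added constant and the scale, since Snord17 had 0 reads in wild type. No Snora median could be given, as 0 Snora entries met the rule. The other 52 values of the compared quantities moved by less than 1.5 times. Scarna10 changed sign in 2 of 4 settings, which were the rescalings, and so did the summed snoRNA log2 ratio, from -0.05 to 0.15 and 0.30. The median of snoRNA minus host log2 ratio also changed sign, from -0.29 over the 8 entries to 0.22 with a pseudocount of 5 TPM. That median was 0.14 under both stricter filters and with identical copies summed. Each Rnu3b copy moved from -1.25 to -1.84 and -0.53 with pseudocounts of 0.1 and 5 TPM. No paired analysis was possible because each genotype had 1 library, and for the same reason no library could be left out. Depth limits the rest: 1 read is worth up to 2.36 TPM for these sequences, and no limit can be given for genes under 205 bases.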
